A study of Mus musculus with 6 samples.

Results

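Retinoic acid, a hormone-like product of vitamin A, is made, carried and destroyed by a small set of proteins, and 9 of their genes were followed here: Aldh1a1, Aldh1a2, Aldh1a3, Rbp4, Crabp1, Crabp2, Cyp26b1, Stra6 and Rdh10. They were chosen by name, from what their products do, and all 9 had a probe set among the 16464 genes of the table. The samples were 3 arrays of immunoprecipitated RNA (IP) and 3 arrays of unbound RNA (UB) from mouse habenula. Dissected tissue came from adults of 6 to 12 weeks. All mice were of the Chat DW167 strain, a line with a bacterial artificial chromosome transgene for translating ribosome affinity purification (TRAP), in which control sequences of Chat put a tag on the ribosomes of cholinergic neurons and the tag is used to pull down bound transcripts. The labels give IP as medial habenula (MHb) cholinergic neuron RNA. UB is the polysomal RNA of the cytoplasm that was left after the pull-down. It therefore stands for the tissue less the RNA that was pulled down, and not for the tissue as a whole. Both fractions came from the same transgenic mice, no drug treatment is labelled, and the labels do not say how many animals stand behind a replicate. No pull-down from mice without the transgene was analysed here, so RNA that sticks to the beads unspecifically was not measured.

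As background, retinol travels in blood and brain fluid bound to the carrier protein encoded by Rbp4, and STRA6 is the membrane receptor that takes it up. RDH10 oxidizes retinol to retinal, the retinaldehyde dehydrogenases encoded by Aldh1a1, Aldh1a2 and Aldh1a3 oxidize retinal to retinoic acid, and CYP26B1 breaks retinoic acid down. The binding proteins CRABP1 and CRABP2 hold retinoic acid in the cell, and CRABP2 is known for passing it to the retinoic acid receptors of the nucleus. In the adult mouse brain Aldh1a2 is known as a gene of the meninges, and Aldh1a1 as a gene of a group of midbrain dopaminergic neurons.

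The members parted between the fractions. Crabp2 had signal in IP alone. Aldh1a1 and Aldh1a2 had signal in UB alone, Rdh10 had signal in both, and Rbp4 reached the signal threshold on 1 UB array. Aldh1a3, Crabp1, Cyp26b1 and Stra6 had none on any array. Signal here means a level of at least 50 on the linear scale, or 5.64 on the log2 scale of the deposited values. The lowest value that an array could take was 2.10 in IP and 2.05 in UB.

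**Figure D1:**
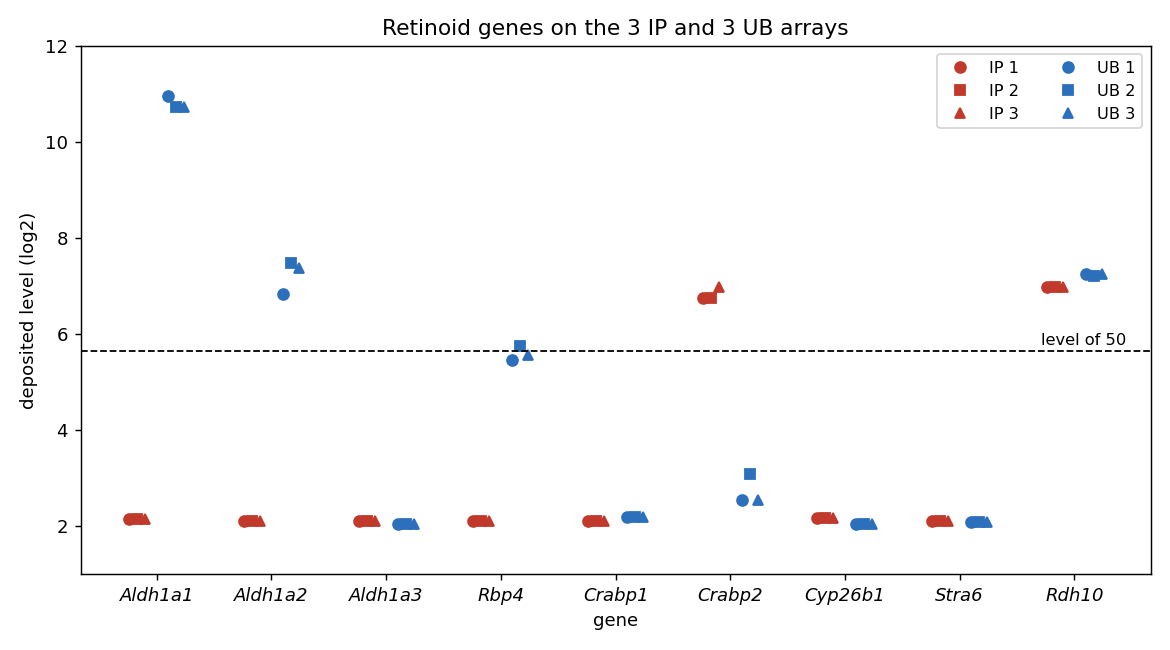
Deposited log2 level (vertical axis) of the 9 retinoid genes (horizontal axis) on each IP array (red) and UB array (blue), with 1 symbol shape per replicate number. The dashed line is the level of 50: the Crabp2 points lie above it in IP alone, those of Aldh1a1 and Aldh1a2 in UB alone, and those of Rdh10 in both.

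A difference was tested only where at least 3 of the 6 arrays had signal, which held for 4 members and for 8960 probe sets in all. Of these, Aldh1a1, Aldh1a2 and Crabp2 passed through 1 fraction alone, so a difference was to be found for them by the way they passed. All 4 tested members were called (limma, adjusted p under 0.05), 3 lower and 1 higher in IP. Over all tested probe sets, 74.5% were called, 43.5% lower and 30.9% higher. A difference of at least 2-fold was called for 2 members that were lower and 1 that was higher, against 28.0% and 14.3% of all tested probe sets. The IP and UB values did not overlap for any of the 4, which also held for 80.0% of all tested probe sets. The fractions had been normalized apart, so neither share says anything of its own about the members. The replicates are labelled as biological replicates, and the 6 arrays limit the precision of each value. In bulk RNA, fewer cells of a type and less RNA per cell cannot be told apart.

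The 3 retinaldehyde dehydrogenase genes make the last step to retinoic acid. Aldh1a1 (NCBI gene 11668, chromosome 19) stood at 2.15 on each of the 3 IP arrays and at 10.95, 10.73 and 10.73 on the UB arrays. All 3 UB arrays were far above all 3 IP arrays, which lay close to the lowest value. With IP set to the level of 50, Aldh1a1 was at least 35.8-fold lower in IP (fitted log2 difference -8.68 ± 0.07, SE, IP minus UB, limma adjusted p = 2.71e-08).

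Aldh1a2 (NCBI gene 19378, chromosome 9) stood at the lowest value of 2.10 on each IP array and at 6.83, 7.49 and 7.38 on the UB arrays. UB replicate 1 was the lowest of the UB arrays and still had signal. Aldh1a2 was at least 3.00-fold lower in IP (fitted difference -5.14 ± 0.19, SE, limma adjusted p = 1.24e-05). Aldh1a3 (NCBI gene 56847, chromosome 7) stood at the lowest value on all 6 arrays, 2.10 in IP and 2.05 in UB, so that no fold can be given for the third enzyme.

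Where the RefSeq promoter windows of the members were searched for sequence motifs, the pair of dehydrogenase genes that were lower in IP shared a motif. The 150 bases before an annotated start of each gene are shown for that reason, 5′ to 3′ on the strand of the gene in build GRCm38.p6, with the octamer ATGCAAAT in capitals. The Aldh1a1 stretch lies at chr19:20601818-20601967 and the Aldh1a2 stretch at chr9:71215639-71215788, both on the plus strand.
Aldh1a1: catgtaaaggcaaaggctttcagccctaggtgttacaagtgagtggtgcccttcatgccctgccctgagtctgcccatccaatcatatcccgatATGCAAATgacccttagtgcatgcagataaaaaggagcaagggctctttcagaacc
Aldh1a2: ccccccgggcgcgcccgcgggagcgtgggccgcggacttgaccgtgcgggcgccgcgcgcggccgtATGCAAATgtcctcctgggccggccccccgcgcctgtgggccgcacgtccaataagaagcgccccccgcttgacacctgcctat

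The octamer, a sequence known to be bound by POU family factors, began at position -56 from the start of Aldh1a1 and at -84 from that of Aldh1a2. It was looked for on both strands after these sequences had been read, and 1.74% of the 32851 windows of 300 bases (250 before and 50 after a start) hold it. A second annotated start of Aldh1a1 has no octamer in its window. Both printed stretches also hold the shorter motif CCAAT, at -72 and -36, which 37.4% of all windows have. The half-site AGGTCA of retinoic acid receptors was in none of the 11 windows of the 6 members that have one, against 16.3% of all windows, and its variant AGTTCA was in 1 window of Stra6, against 14.0%. Direct repeats of that half-site with spacers of 2 or 5 bases (AGGTCANNAGGTCA and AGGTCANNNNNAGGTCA) were in none of the 11, against 0.00913% of all windows for each. TATAAA was in 1 window of Cyp26b1 and 1 of Rbp4, against 13.6%. Windows of Aldh1a3, Crabp2 and Rdh10 were not analysed here. A match in such a window is a description of its letters only.

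Rdh10 makes retinal, the substrate of these enzymes. Rdh10 (NCBI gene 98711, chromosome 1) stood at 6.98 on each IP array and at 7.25, 7.22 and 7.25 on the UB arrays. The fractions lay close together without overlap, and Rdh10 was 1.21-fold lower in IP (difference -0.27 ± 0.01, SE, limma adjusted p = 3.48e-05). The small SE rests on the equal IP values: the same tie, in at least 1 fraction, was found for 31.0% of tested probe sets. How IP was scaled to UB decided the direction for Rdh10. It was 0.42 with quantile normalization (limma adjusted p = 0.00102) and 1.29 when both fractions were given 1 median (limma adjusted p = 1.24e-06). Adjusted p-values for Rdh10 ran from 1.28e-08 to 0.441 among the alternatives.

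Crabp2 (NCBI gene 12904, chromosome 3), the carrier of retinoic acid to its receptors, was the only member called higher in IP. Its level was 6.76, 6.76 and 6.97 on the IP arrays and 2.55, 3.10 and 2.55 on the UB arrays. All 3 IP arrays had signal, and none of the UB arrays did. Crabp2 was at least 2.25-fold higher in IP (fitted difference 4.08 ± 0.18, SE, limma adjusted p = 2.48e-05). Of all tested probe sets, 3.93% were under 50 on each UB array, as Crabp2 was, and 15.3% were under 50 on each IP array, as Aldh1a1 and Aldh1a2 were. Crabp1 (NCBI gene 12903, chromosome 9), the other cellular binding protein gene, stood at 2.11 in IP and 2.20 in UB.

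Among the genes for delivery and clearance, Rbp4 (NCBI gene 19662, chromosome 19) was at the lowest value of 2.10 on each IP array. On the UB arrays it stood at 5.46, 5.75 and 5.56, so UB replicate 2 was the only array with signal and no fold is given. Stra6 (NCBI gene 20897, chromosome 9) was at 2.10 throughout IP and at 2.09 throughout UB. Cyp26b1 (NCBI gene 232174, chromosome 6) was at 2.18 in IP and 2.05 in UB. Levels this low do not show that the transcripts are absent, only that these probe sets gave no signal.

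Under 7 scalings between the fractions, 3 of the 4 tested members kept their direction and their call. These 3 had passed the filter through 1 fraction alone, which had set their direction, so a kept sign is no separate support for it. Rdh10, with signal in both fractions, did not keep its direction. The log2 difference of Aldh1a1 ranged from -10.24 to -7.12. Aldh1a2 ranged from -6.70 to -3.58 and Crabp2 from 2.52 to 5.64. The shifts between scalings were wide: equal medians over the whole table moved IP up by 1.56 on the log2 scale, and the poly-A controls, which are added before amplification, moved it down by 1.56. With the poly-A controls, the IP level of Crabp2 came to 5.25, under the threshold, so that no fold can be given there.

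**Figure D2:**
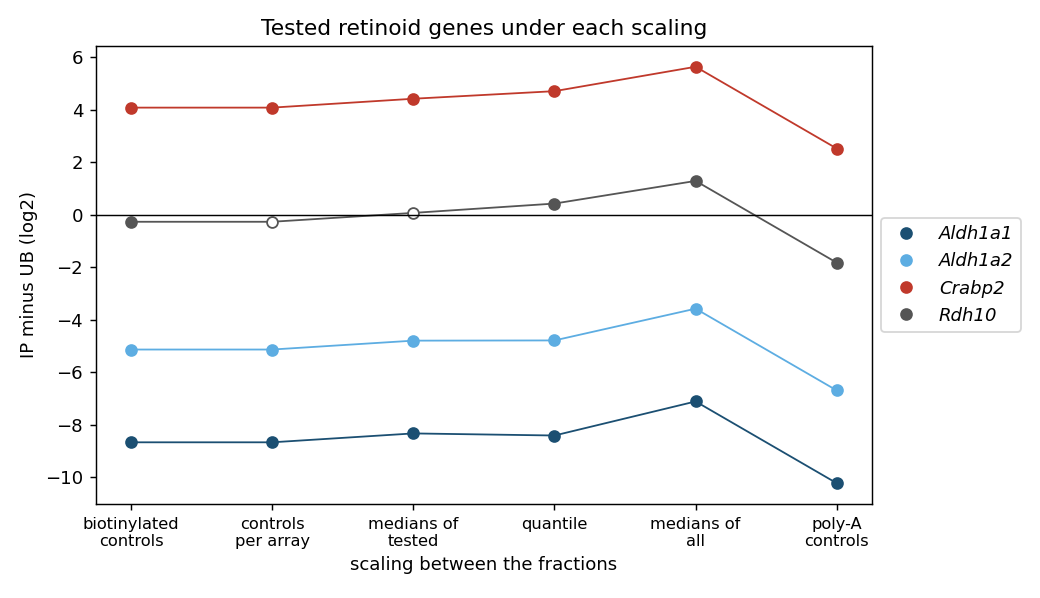
Difference of IP minus UB (vertical axis, log2) of the 4 tested retinoid genes under 6 scalings between the fractions (horizontal axis), with filled points where the limma adjusted p was under 0.05 and open points where it was not. Aldh1a1 and Aldh1a2 stay below 0 and Crabp2 above it, while Rdh10 runs from -1.83 to 1.29.

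Around the members, 82 further genes of retinoid metabolism, transport, signalling and response and of the aldehyde dehydrogenase family were listed, 72 had a probe set and 36 were tested. Of the 36, 21 were called lower in IP, 6 higher and 9 were not called (limma), beside 43.5% lower and 30.9% higher over all tested probe sets. The same shares stand as background for each list below. Of the 21 that were lower, 12 were under 50 on all IP arrays, so that passing the filter had set their direction. With the 7 scalings set side by side, the sign was the same throughout for 15 of the 21 and for 2 of the 6, Rdh5 and Aldh16a1.

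**Figure D3:**
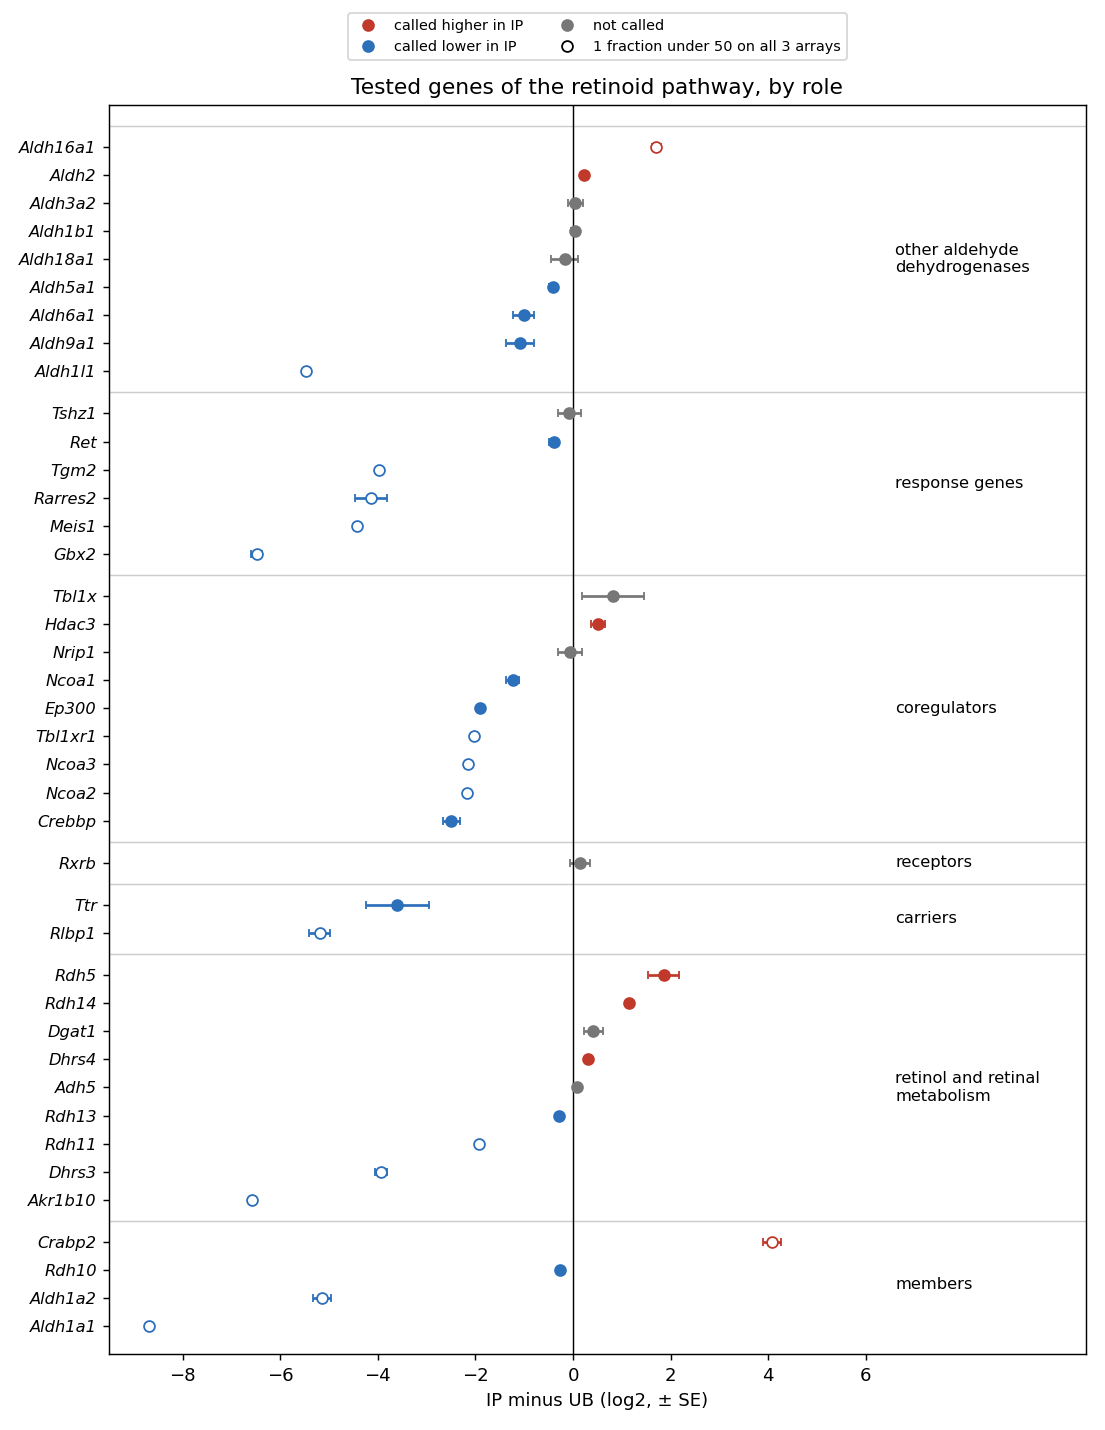
Difference of IP minus UB (horizontal axis, log2, with SE) for the tested genes of the retinoid pathway, each shown once and grouped by role, under the scaling on biotinylated controls. Red points were called higher in IP, blue points lower and grey points were not called, and open points had 1 fraction under 50 on all 3 arrays. Aldh1a1 lies at -8.68 and Crabp2 at 4.08.

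Enzymes that convert retinol and retinal into each other or store retinol gave a mixed picture. Of 24 listed genes, 22 were on the arrays and 9 passed the filter: 3 were higher in IP, 4 were lower and 2 were not called by limma (median difference 0.08, against -0.17 over all tested probe sets). Rdh5, a retinol dehydrogenase known for its work in the visual cycle, stood at 8.83, 9.65 and 9.51 in IP and at 7.30, 7.90 and 7.15 in UB. All IP arrays were above all UB arrays, and Rdh5 was 3.63-fold higher in IP (1.86 ± 0.32 on the log2 scale, SE, limma adjusted p = 0.00469). With the poly-A controls it was at 0.30 and not called (adjusted p = 0.403).

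Dhrs3, which reduces retinal back to retinol, had 2.70 on each IP array and 6.45, 6.86 and 6.52 on the UB arrays, and was at least 1.95-fold lower in IP (limma adjusted p = 5.47e-06). Akr1b10, whose human counterpart reduces retinal, was at the lowest value on each IP array and at 8.54, 8.82 and 8.61 in UB, at least 8.07-fold lower in IP. Rdh11, another retinal reductase, was at least 2.80-fold lower. Like Aldh1a1 and Aldh1a2, these 3 genes had signal on all UB arrays and on no IP array. The other 13 of the 22 were under 50 on all arrays, among them Lrat, which stores retinol as an ester, and Rpe65, the isomerase of the visual cycle.

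Of 10 further carrier and uptake genes, 7 were on the arrays, 2 passed the filter and both were lower in IP (limma). Ttr encodes transthyretin, the partner of the Rbp4 product in blood and a major product of the choroid plexus. It stood at 10.43, 11.39 and 9.67 in IP and at 15.00, 13.37 and 13.87 in UB, 12.1-fold lower in IP (-3.60 ± 0.64, SE, limma adjusted p = 0.00553). Rlbp1, the retinal-binding protein gene of the visual cycle and of glia, was at 2.67, 2.11 and 2.11 in IP and at 7.18, 7.66 and 7.56 in UB, at least 3.54-fold lower. The fractions did not overlap for Ttr or Rlbp1. The other 5 carriers, Rbp2, Rbp3, Rbp7, Stra6l and Lrp2, were under 50 on all arrays.

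Of the 6 nuclear receptors that bind retinoids, Rxrb alone had signal. This retinoid X receptor gene stood at 10.78, 11.11 and 11.53 in IP and at 10.98 on each UB array. The fractions overlapped and Rxrb was not called (0.15 ± 0.20, SE, limma adjusted p = 0.539), although equal medians over the whole table called it higher (1.71) and the poly-A controls lower (-1.41). The retinoic acid receptor gene Rarb, itself induced by retinoic acid, was at 2.12, 2.12 and 2.16 in IP and at 5.46, 5.45 and 5.45 in UB, just under the threshold. Rara and Rarg were at 2.14 and 2.10 in IP and at 2.05 and 2.62 in UB. Rxra stood at 2.40 throughout IP and 3.35 throughout UB. Rxrg was at 2.10 in IP and between 3.27 and 3.92 in UB.

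The clearance genes listed beside Cyp26b1 gave no signal either. Cyp26a1, the enzyme of the same family that retinoic acid induces, was at 2.10 in IP and 2.21 in UB. Cyp1b1 was at 2.10 and 2.05, and Cyp2s1 at 2.10 and 4.47. Cyp26c1 was not analysed here.

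Coregulators of these receptors all had signal in UB. Of 12 listed, 9 were on the arrays and passed the filter: limma called 1 higher in IP and 6 lower, and 2 were not called. The median difference was -1.91, or -1.07 with dim genes at their bounds, against -0.17 over all tested probe sets. Of the 6, 3 were under 50 on all IP arrays, so that passing the filter had set their direction. Crebbp, a histone acetyltransferase gene, was at 6.15, 6.36 and 5.75 in IP and at 8.46, 8.68 and 8.55 in UB, 5.62-fold lower in IP (limma adjusted p = 0.000162). The coactivator gene Ncoa2 was at least 3.76-fold lower, and its relative Ncoa3 at least 2.10-fold. The corepressor complex gene Tbl1xr1 was at least 1.04-fold lower, since its UB level of 5.70 lay just above the threshold of 5.64. These coregulators also serve many receptors other than those for retinoids.

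Of 17 genes listed as responding to retinoic acid in other tissues, 15 were on the arrays and 8 passed the filter: 6 were lower in IP, 0 higher and 2 not called (limma, median difference -3.95, or -0.58 with dim members at their bounds). Without adjustment, p was under 0.05 for the same 6. Of these, 5 had no signal on any IP array and passed through UB alone, which set their direction. The sixth, Ret, a receptor tyrosine kinase gene named after its values were seen, was at -0.40 and turned to 1.16 under equal medians over the table (limma adjusted p = 4.18e-05). Tgm2, the transglutaminase gene, had 2.12 on each IP array and 6.06, 6.11 and 6.06 on the UB arrays, at least 1.35-fold lower in IP. The homeobox gene Meis1 was at least 1.87-fold lower and Rarres2, which encodes the chemokine-like protein chemerin, at least 1.66-fold lower. Gbx2, a homeobox gene that also stands in the list of thalamic markers, was at least 23.6-fold lower. The list also holds Dhrs3, described above. Tshz1 and Nrip1 had differences of -0.08 and -0.06 and were not called.

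Other aldehyde dehydrogenases did not follow Aldh1a1 and Aldh1a2 as a family. All 15 listed were on the arrays and 9 passed the filter: limma called 2 higher in IP and 4 lower, and 3 were not called (median difference -0.17, equal to that over all tested probe sets). Aldh1l1, the folate enzyme widely used to mark astrocytes, was at the lowest value on each IP array and at 7.56, 7.55 and 7.56 in UB, at least 3.76-fold lower. Aldh16a1 went the other way, at 6.26, 6.57 and 6.52 in IP and at 4.71, 4.71 and 4.75 in UB, at least 1.73-fold higher (limma adjusted p = 5.08e-05). With the poly-A controls, Aldh16a1 was at 0.15 and not called (limma adjusted p = 0.172). Aldh9a1 and Aldh6a1 were 2.11-fold and 2.02-fold lower, a direction that turned under equal medians over the whole table, where their log2 differences were 0.48 and 0.55.

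Markers of the cell types in the preparation were set beside the members. These lists, like the members, were chosen with earlier results of these data known. Their counts, here and below, are a description only. All 13 markers of medial habenula neurons were called higher in IP (limma), beside 30.9% of all tested probe sets. Slc18a3, the vesicular acetylcholine transporter gene, was at 11.07, 11.95 and 12.27 in IP against 3.93, 4.31 and 3.93 in UB. Of the 13, Slc18a3 and Slc5a7 passed the filter through IP alone, which set their direction. The choline transporter gene Slc5a7 was at least 1.57-fold higher, and of the nicotinic receptor subunit genes, Chrna3 was 16.0-fold and Chrnb4 15.1-fold higher. Chat itself was not analysed here. The summed level of this list lay between 16.43 and 16.79 in IP and between 13.68 and 14.36 in UB on the log2 scale. Crabp2 lay on the same side, which passing the filter through IP alone had set. The part of these neurons in the values of Crabp2 was not tested.

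Aldh1a2 was set beside markers of meningeal and perivascular fibroblasts. All 16 of them were under 50 on every IP array. Of the 16, 5 passed the filter, through UB alone, and were called lower in IP (limma). Another 9 had no signal in UB either, including the collagen genes Col1a1, Col1a2 and Col3a1. Igfbp2, which encodes a binding protein for insulin-like growth factors, was at 7.70, 7.44 and 7.73 in UB, lowest in replicate 2. Dcn, which encodes the matrix protein decorin, was at 6.73, 7.54 and 6.84 in UB. Mgp, the matrix Gla protein gene, was at 5.68, 7.14 and 6.23. Both were lowest in replicate 1 and highest in replicate 2. The growth factor gene Igf2 stood at 6.23, 6.24 and 6.24 in UB, and Foxd1 at 5.92, 6.08 and 5.92. The summed level of the list was 9.34, 9.74 and 9.45 on the UB arrays, and between 6.13 and 6.14 in IP. Its lowest UB array was replicate 1 and its highest replicate 2, as for Aldh1a2 and Rbp4, although Igfbp2 ran otherwise. The lists of endothelial and mural cells, astrocytes, oligodendrocytes, microglia and medial habenula neurons had that order of lowest and highest UB array too. The part of these cells in the values of Aldh1a2 was not tested.

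Rbp4 and Ttr were also set beside markers of the choroid plexus. Of its 15 markers, 13 had a probe set and 7 of these had no signal on any array, among them Folr1, Kl and Aqp1. Calml4 was at least 24.1-fold lower in IP. Kcnj13 (7.76, 4.25 and 4.26 in UB) and Clic6 (6.34, 4.11 and 4.19) had signal on UB replicate 1 alone. Both stood at the lowest value of 2.10 in IP, and neither passed the filter. Sostdc1 and Otx2 were 13.0-fold and 2.35-fold higher in IP, opposite to Ttr, although the sign of Otx2 turned with the poly-A controls. The summed level was 15.09, 13.62 and 14.01 on the UB arrays, highest in replicate 1. Ttr is itself in the list and made up most of that sum (15.00, 13.37 and 13.87). The order of the sum is therefore that of Ttr and no separate observation. In IP it was 11.76 to 12.39, and there Sostdc1 (10.16, 10.71 and 10.71) and Otx2 (9.80, 9.92 and 9.92) added to it beside Ttr. Rbp4 was lowest in UB replicate 1. The part of the choroid plexus in these values was not tested.

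Aldh1a1 had its highest UB value in replicate 1. Markers of dopaminergic neurons, where Aldh1a1 is known, were split: Th, which makes the precursor of dopamine, was 4.80-fold higher in IP and Nr4a2 7.30-fold higher, while Ddc was at least 22.8-fold lower. The dopamine transporter gene Slc6a3 and the transcription factor genes Pitx3, En1 and Foxa2 had no signal on any array. Of the other marker lists, all 9 tested astrocyte genes, all 9 oligodendrocyte genes, all 7 ependymal genes, all 8 thalamic genes and all 5 lateral habenula genes were called lower in IP (limma), as Aldh1a1 and Aldh1a2 were. Among these genes the sign turned under another scaling for the thalamic gene Tcf7l2 alone. For microglia this was 3 of 4, and for endothelial and mural cells the 1 gene tested, Acta2, at least 4.90-fold lower. Many of these calls, among them 7 of 9 for astrocytes and 6 of 9 for oligodendrocytes, were of genes that passed through UB alone. Over all tested probe sets, 43.5% were called lower.

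Among astrocyte genes, S100b and Slc1a2 were lower in IP by at least 29.5-fold and 15.2-fold, and the connexin gene Gja1 was 57.7-fold lower. The myelin genes Mog, Opalin, Mag and Ugt8a were lower by at least 32.3-fold, 25.3-fold, 14.7-fold and 13.4-fold. Of the microglial genes, C1qb, Csf1r and Aif1 were lower by at least 5.66-fold, 3.78-fold and 1.64-fold, and C1qa was not called (0.88). The ependymal genes Ccdc153, Tmem212, Ak7 and Pifo were lower by at least 55.6-fold, 7.50-fold, 6.95-fold and 4.50-fold. In the lateral habenula list, Gap43 was 58.3-fold lower, and Vgf, Htr2c and Pcdh10 were lower by at least 47.7-fold, 6.71-fold and 3.87-fold. The thalamic genes Necab1 and Rgs16 were lower by at least 33.0-fold and 11.4-fold, and Rora was 39.1-fold lower. Which of these cells carry Aldh1a1 was not tested.

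**Figure D4:**
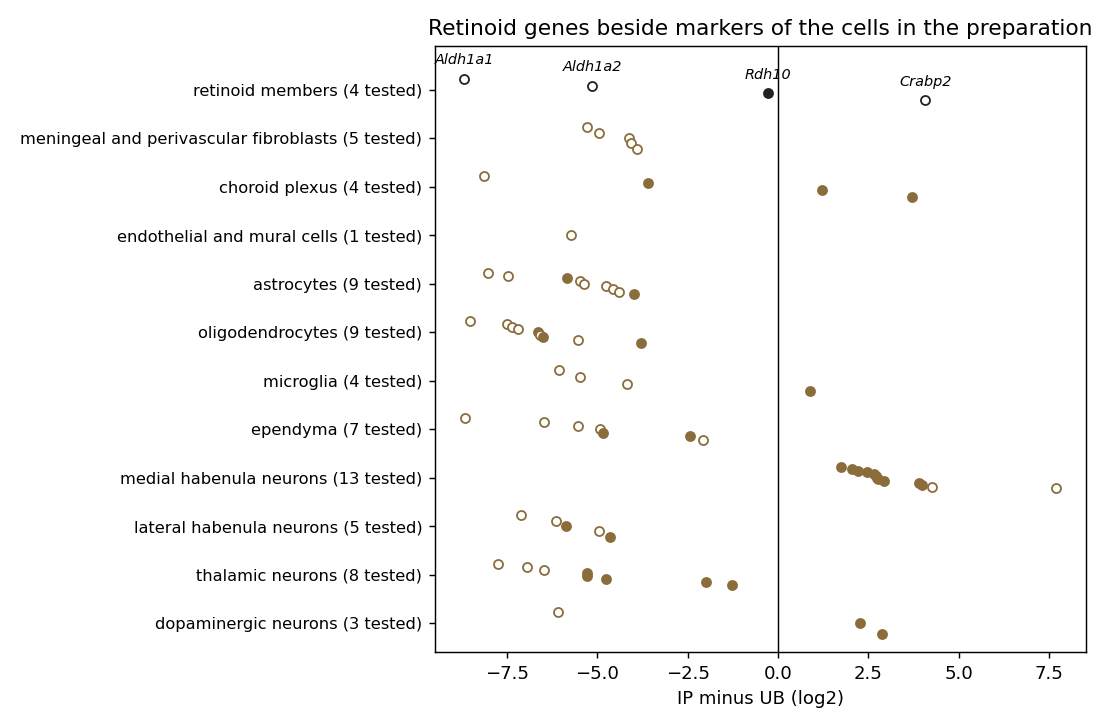
Difference of IP minus UB (horizontal axis, log2) of the tested retinoid genes (top row, black) and of the tested markers of 11 cell types (brown, 1 row each), with open points where 1 fraction was under 50 on all 3 arrays. Crabp2 lies on the side of the medial habenula markers, and Aldh1a1 and Aldh1a2 lie on the side of the astrocyte, oligodendrocyte, fibroblast, ependymal, thalamic and lateral habenula markers.

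The genes whose pattern over the 6 arrays was most like that of a member were found by the root mean square distance between log2 values, each gene centred on its own mean. For Aldh1a1 these were Ccdc153, Cox6a2 and Ctxn3, at distances of 0.16, 0.18 and 0.21. Ccdc153 is also among the ependymal markers, at 11.45, 11.68 and 11.19 in UB. For Aldh1a2 they were Gjb2, Bcan and S100a16, at 0.04, 0.06 and 0.08. Gjb2, a connexin gene, was at 2.10 on each IP array and at 6.82, 7.52 and 7.28 in UB, so that its 3 UB arrays stood in the same order as those of Aldh1a2. For Crabp2 they were Tesc, Nppa and Sphk1, at 0.14, 0.17 and 0.19. Tesc, which encodes the calcium-binding protein tescalcin, was at 13.94, 14.11 and 14.14 in IP and at 10.06, 10.33 and 10.06 in UB. For Rdh10 they were Dazap1, Rexo1 and Mtor, each at 0.01. These distances cover 3 pairs of arrays only, and are a description of likeness in these samples.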

How the data were processed

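The deposited table gives log2 levels, made by the authors with GCRMA, per the submitters' processing notes (version and genome build not given in the sources used here). Per the labels, 20 ng of RNA were amplified over 2 cycles, and replicates were normalized within groups. The table held 17370 probe sets, 64 of them controls, and 16464 had a gene symbol, matched by gene ID to RefSeq (GRCm38.p6). On all arrays of a fraction, 50.6% of probe sets were tied in IP and 47.7% in UB.

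The mean difference of 18 biotinylated controls (0.02 on the log2 scale, IP minus UB, with an SE of 0.03 over controls) was subtracted from IP, a scaling that the authors advise, per the labels' design text. Probe sets with a level of at least 50 on at least 3 of the 6 arrays (8960) were compared in limma 3.58.1 (R 4.3.3), with eBayes, a mean trend and 0.651 prior degrees of freedom. Tests were two-sided, and Benjamini-Hochberg adjustment ran over all of them. A call was an adjusted p under 0.05. Where a fraction was under 50 on all 3 arrays, the fold was taken against 50 and is written as "at least". Without adjustment, 6859 had p under 0.05.

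The fit was tested on simulated data, in which arrays were shuffled within a fraction, so that no pairing of the fractions was kept. It recovered 24% of differences of 0.5 on the log2 scale, 62% of 1, 86% of 2 and 98% of 4. Of 8760 unchanged probe sets, 0 were called. The simulation had fixed this, since both fractions were given the same mean and each unchanged difference was 0. The planted differences were likewise fitted without error, so the shares recovered do not measure how often real differences are found. Fractions of 1 replicate number were taken to come from 1 preparation, although the sample titles give the number only. Deviations from the group mean correlated at 0.59, 0.48 and 0.28 within the numbers and at -0.51 to 0.31 between them. IP replicate 3 was slightly closer to UB replicate 2 (0.31) than to its own number. The p-values above come from a fit that leaves the pairing by number out, and those of the tested members with it are given below. Alternatives covered scaling, filters, ties, the replicate block and each array left out. Members and lists were chosen with earlier results of these data known. Named by rule were the members, all receptor and clearance genes, the 4 tested genes of each other list with the largest difference and the 3 nearest patterns per tested member. Untested genes and those outside that rule were named after their values were seen. Python 3.11.15, pandas 2.3.3 and matplotlib 3.10.9 made tables and figures.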

Additional observations from a re-analysis of the deposited data

How the results depend on the processing

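Over 20 alternatives, Aldh1a1 and Aldh1a2 stayed lower and called (differences of -10.24 to -5.16 and -6.70 to -1.59 on the log2 scale), and over 21, Crabp2 stayed higher and called (1.17 to 5.64). The values nearest to 0 came from raising levels under 50 to 50. Aldh1a1, Aldh1a2 and Crabp2 had each passed the filter through 1 fraction alone, which had set their direction, so these tallies are no separate support. An alternative that left a gene out was not counted for it. Rdh10 turned to 1.29 with equal medians over the table, 0.42 with quantile normalization and 0.066 with equal medians over tested probe sets (limma adjusted p = 1.24e-06, 0.00102 and 0.388). An offset per array ended its call (-0.27, limma adjusted p = 0.441, range over all alternatives 1.28e-08 to 0.441). The cause was not tested. Leaving out arrays gave -8.79 to -8.57 for Aldh1a1, -5.51 to -4.92 for Aldh1a2, 3.82 to 4.37 for Crabp2 and -0.44 to -0.12 for Rdh10, all called. Rdh10 was at -0.44 without UB replicate 1 and at -0.12 without UB replicate 3, where the control offset was taken anew from the arrays left. The replicate block changed no call of a member, nor did the eBayes fit without a trend. With the block, which pairs the fractions of 1 replicate number, the adjusted p-values of the members were larger. They were 4.70e-05 for Aldh1a1, 0.000807 for Aldh1a2, 0.00152 for Crabp2 (difference 4.08) and 0.00201 for Rdh10 (limma).

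Of the members, 1 was called higher and 3 lower. Higher calls were 2 under equal medians over the table and under quantile normalization, 4 with no filter and 0 with a level of 50 on all 6 arrays. Lower calls were 5 with no filter, 1 with a level of 50 on all 6 arrays, and 0 without tied probe sets. The stricter filters leave out Aldh1a1 and Aldh1a2, and Crabp2 or Rdh10, by construction, and no filter adds the 5 dim members. With no filter, Stra6 was called at a difference of 0.001 (limma adjusted p = 6.03e-07) between tied values of fractions normalized apart. Over all tested probe sets, 2772 higher calls became 6680 under equal medians over the table, 8557 with no filter and 405 with the poly-A controls, an alternative chosen after seeing the data. The 3900 lower calls became 1587, 5998 and 7724, and 2416 with a level of 50 on all arrays and 2123 without ties. Leaving out arrays gave 2053 to 3151 higher and 3080 to 4239 lower calls. Signal over background limits the dim members: 5 of 9 could not be tested.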

Other observations

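The 24 poly-A control probe sets, outside the comparisons above except as an alternative scaling, were all higher in IP than in UB in the deposited values, by 0.89 to 3.91 on the log2 scale (mean 1.57). The control probe set for the mouse B1 repeat was lower in IP by a difference of -3.96. The 18 biotinylated controls differed by 0.02 between the fractions, with array means from 11.13 to 11.75.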
